A study of Mus musculus with 29 samples.

Results

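Transcript levels of 10 interferon-gamma inducible GTPase genes were described in the mouse aortic arch. The set held 7 guanylate-binding proteins (GBPs), Gbp2, Gbp3, Gbp4, Gbp6, Gbp7, Gbp8 and Gbp9, and 3 immunity-related GTPases (IRGs), Igtp, Irgm1 and Iigp1. They were listed by symbol and matched to the Ensembl gene IDs of the deposited table, where they were 10 of 56748 genes. Of the 10, 9 were among the 12353 genes that passed a filter on low counts (more than 10 counts in more than 10 of 28 samples), and Gbp6 did not pass. The list was chosen by measured values of these same data: Gbp4 and Gbp8 had stood apart in the log2 fold changes for age and diet among wild-type mice. The values of all 10 genes for age and diet in wild-type mice, and for the interactions that contain those contrasts, are therefore given as a description without a test.

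GBPs and IRGs are GTPases that cells make in large amounts after exposure to interferon-gamma, and many also respond to type I interferon. They assemble on the membranes of vacuoles that hold intracellular pathogens, and help to break these open and to alert inflammasomes. IRGs divide into effectors, such as Iigp1, which coat the vacuole, and regulatory members, such as Irgm1 and Igtp, which keep the effectors inactive on the cell's own membranes. In the vessel wall, endothelial cells, smooth muscle cells and macrophages can all carry the interferon-gamma receptor.

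Ercc1Δ/− mice carry 1 truncated and 1 null allele of Ercc1, an endonuclease subunit needed for several DNA repair pathways, and age prematurely. They came from crossing Ercc1Δ/+ with Ercc1+/− parents of different pure strains, so that all mice were F1 C57BL6J/FVB hybrids, and wild-type (WT, Ercc1+/+) littermates were the controls. Both genotypes were sampled at 6 weeks on ad libitum (AL) food, at 22 weeks on AL food, and at 22 weeks after dietary restriction (DR), which began at 7 weeks of age with 10% less food and reached 30% from 9 weeks on. All mice ate AIN93G pellets and were housed 1 to a cage, and each gave 1 library from the whole arch. There were 5 libraries in each group but 4 from AL-fed Ercc1Δ/− mice of 22 weeks and 4 from AL-fed WT mice of 22 weeks, where sample 003 was left out for its total of 400410 counts. The 28 libraries came from 11 females and 17 males. Since RNA of the whole arch was read, fewer cells of a type and less RNA per cell cannot be told apart.

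Total counts on genes ran from 921167 to 9616382 per library, with a median of 3256708, so that 1 count was worth 0.103 to 1.08 CPM (counts scaled to a library of 1e+06). Mean Ercc1 levels were 27.4 to 31 CPM in the WT groups and 11.3 to 15.9 CPM in the Ercc1Δ/− groups. Summed markers of smooth muscle reached 16600 to 42800 CPM in the 28 libraries and those of endothelium 571 to 1760 CPM. The 10 macrophage markers summed to 188 to 1300 CPM and were detected in every library. The 10 T and NK cell markers summed to at most 14.3 CPM, the 5 B cell markers to at most 15.5 CPM and the 6 dendritic cell markers to at most 9.24 CPM, and no gene of these lists passed the filter.

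The GBP genes lie in clusters (GRCm39). Gbp7, Gbp3 and Gbp2 occupy chromosome 3 between 142236044 and 142343779 on the plus strand. Gbp8, Gbp9, Gbp4 and Gbp6 occupy chromosome 5 between 105162016 and 105443751 on the minus strand, and the annotated bodies of Gbp8, Gbp9 and Gbp4 overlap, and 2.37% of the exon bases of Gbp8 belong to Gbp9 and Gbp4 as well. The IRG genes lie apart from one another: Igtp starts at 58089840 and Irgm1 ends at 48763164 on chromosome 11, and Iigp1 is on a different chromosome. The methods of the study name counting over the gene body, under an annotation release older than the one used here. Of 330 protein-coding genes that lie wholly inside another on the same strand, as Gbp9 does inside Gbp8, 72 had a median above 10 counts per library. Which bases were counted for each gene could not be settled, and the division of reads among Gbp8, Gbp9 and Gbp4 is uncertain. Of the stretches of 100 bases in Gbp6 transcripts, 53.6% also occur in other genes, mostly Gm43302, whereas the share was 0 to 8.68% in the other 9 genes, so Gbp6 counts are uncertain.

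Start-site sequence from RefSeq (GRCm38.p6, a build older than that of the counts) was at hand for 5 of the 10 genes, Gbp2, Gbp3, Gbp7, Igtp and Irgm1. Interferon-responsive genes often carry near the start an interferon-stimulated response element or a gamma-activated site. The 150 bases before 1 start of each gene are shown to display how alike these windows are. Only windows that held a motif defined below are shown. Capitals mark GAAA, any 2 bases and GAAA again (TTTC, any 2 bases and TTTC when it lies on the other strand), here called the ISRE-type motif, and TTC, any 3 bases and GAA, the GAS motif, which reads the same on both strands. The windows are chr3:142620513-142620662 (plus strand) for Gbp2, chr3:142559894-142560043 (plus strand) for Gbp3, chr3:142530186-142530335 (plus strand) for Gbp7, chr11:58199406-58199555 (plus strand) for Igtp and chr11:48871421-48871570 (minus strand) for Irgm1.
Gbp2: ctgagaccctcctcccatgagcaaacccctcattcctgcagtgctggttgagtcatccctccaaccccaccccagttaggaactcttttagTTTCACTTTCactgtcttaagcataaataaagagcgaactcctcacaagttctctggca
Gbp3: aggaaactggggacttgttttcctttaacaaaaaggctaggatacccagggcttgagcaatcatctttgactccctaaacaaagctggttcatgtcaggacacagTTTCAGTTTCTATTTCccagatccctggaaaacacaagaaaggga
Gbp7: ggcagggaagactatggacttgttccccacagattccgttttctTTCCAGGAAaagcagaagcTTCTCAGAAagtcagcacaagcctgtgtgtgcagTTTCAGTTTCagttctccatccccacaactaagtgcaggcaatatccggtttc
Igtp: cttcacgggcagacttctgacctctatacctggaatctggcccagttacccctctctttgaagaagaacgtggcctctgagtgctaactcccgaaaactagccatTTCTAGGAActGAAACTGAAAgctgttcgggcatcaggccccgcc
Irgm1: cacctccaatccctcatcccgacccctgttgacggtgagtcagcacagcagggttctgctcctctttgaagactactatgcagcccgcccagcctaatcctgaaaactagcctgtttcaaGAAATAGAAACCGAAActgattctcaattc
The ISRE-type motif was found in the window shown for each of these 5 genes, with a first base 24 to 59 bases before the start. A second Gbp3 start, with the window chr3:142560106-142560405, held neither motif and is not shown. Of the 6 windows of these genes 5 thus held the ISRE-type motif. In Gbp3 and in Irgm1 there were 2 overlapping matches. The GAS motif was found in 2 of the genes, with 2 matches in Gbp7 and 1 in Igtp, where it lies directly before the ISRE-type motif. Among 32851 RefSeq promoters of 300 bases, 3.44% held the ISRE-type motif, 8.3% the GAS motif and 0.454% both. A match of letters is not evidence of binding.

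Per kilobase of annotated exon, Gbp2 had the highest median level of the 10 over the 28 libraries, 26.9 CPM per kilobase, followed by Gbp3 at 6.54 and Irgm1 at 4.06. Gbp8, Iigp1 and Gbp7 followed at 2.76, 2.43 and 2.23 CPM per kilobase, and Gbp9, Igtp, Gbp4 and Gbp6 stood at 1.54, 1.5, 0.644 and 0.192. Without the length, the medians ran from 1.3 CPM for Gbp6 to 69 CPM for Gbp2. Gbp6 had no count in 4 libraries and more than 10 counts in only 3, with 34 at most.

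**Figure D1:**
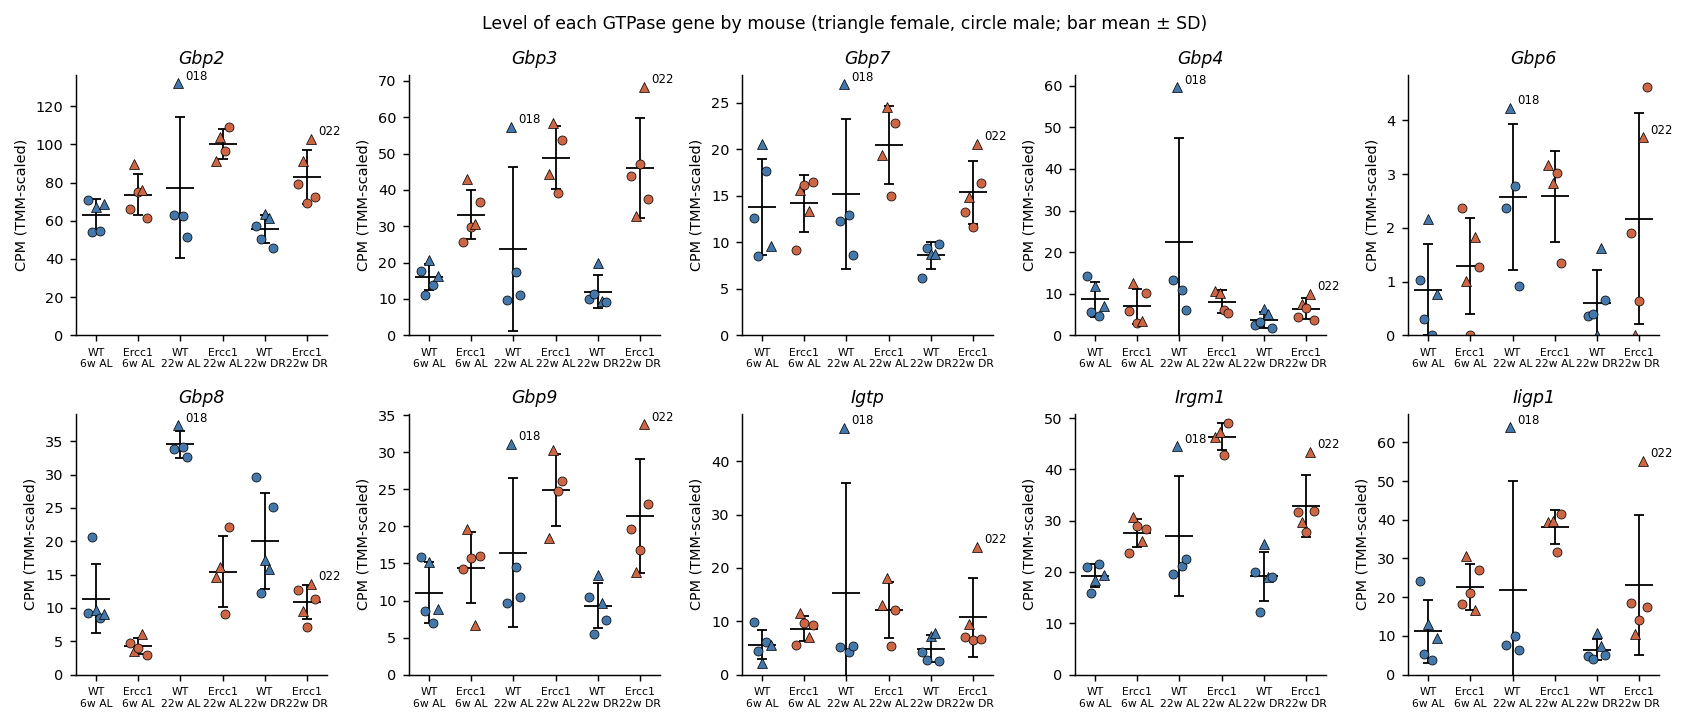
Level of each GTPase gene (CPM on TMM-scaled libraries) in every mouse of the 6 groups, with WT in blue and Ercc1Δ/− (written Ercc1) in red, females as triangles and males as circles. Horizontal bars are group means and whiskers ± SD, cut at 0. Sample 018 is far above the other 3 AL-fed WT mice of 22 weeks for most genes but not for Gbp8, which is lower in Ercc1Δ/− mice than in WT mice.

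The first question was what Ercc1 deficiency did to these genes in young mice, before the diets began. At 6 weeks Gbp8 was lower in Ercc1Δ/− mice, while Gbp3 and Irgm1 were higher in every Ercc1Δ/− mouse than in any WT mouse but did not pass the test. A gene was called changed when edgeR's quasi-likelihood test gave a p, adjusted by Benjamini-Hochberg over all tested genes, of 0.05 or less and the change was 1.2-fold or more. By that rule 1 of the 9 tested genes fell and none rose at 6 weeks, against 1.72% of all 12353 genes called in either direction. The median log2 fold change of the 9 was 0.36, against 0.01 over all genes. The WT mice of 6 weeks also enter the wild-type age contrast that drew attention to the list, so these values are not independent of that choice.

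Gbp8, a chromosome 5 GBP, measured 9.18, 20.6, 9.76, 8.48 and 9.01 CPM in the WT mice of 6 weeks (samples 001, 009, 011, 019 and 024). In the Ercc1Δ/− mice it measured 4.74, 3.52, 3.94, 6.07 and 2.95 CPM (samples 002, 008, 015, 023 and 027). Every Ercc1Δ/− mouse was below every WT mouse, and sample 009 stood apart at the top of the WT group. The difference was −1.42 ± 0.28 (log2 ± SE), or 2.67-fold lower, with an adjusted p of 0.00998. Among males alone it was −1.73 with an adjusted p of 0.0715, and with all libraries thinned to the lowest total it was −1.11 with an adjusted p of 0.123.

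Gbp3, of the chromosome 3 cluster, was 11.2 to 20.6 CPM in the WT mice and 25.8 to 43 CPM in the Ercc1Δ/− mice, without overlap. Groups did not overlap for 2.87% of all genes and for 3 of the 9. The Gbp3 log2 difference of 1.07 ± 0.36 had an adjusted p of 0.186. Irgm1, a regulatory IRG that guards the cell's own membranes, was 15.9 to 21.6 CPM in WT and 23.7 to 30.7 CPM in Ercc1Δ/− mice, again without overlap, and its difference of 0.51 ± 0.17 had an adjusted p of 0.171. These p-values depended on a library outside the comparison, which was singled out by its high values for most of these genes. When sample 018, an AL-fed WT mouse of 22 weeks that enters the common estimate of spread, was left out, Gbp3 had an adjusted p of 0.00335 and Irgm1 of 0.0305 with differences of 1.08 and 0.51, so that 3 genes were called, against 1.81% of all genes in that fit. The log2 differences of Gbp2, Gbp7, Gbp9, Igtp and Iigp1 lay between 0.19 and 0.86 and that of Gbp4 was −0.42, each with overlapping groups.

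At 22 weeks on AL food Irgm1 was higher and Gbp8 lower in Ercc1Δ/− mice, 2 calls among the 9 genes, against 12.0% of all genes. This comparison uses the same AL-fed WT mice of 22 weeks as the wild-type contrasts that drew attention to the list. Irgm1 measured 19.7, 44.5, 21.2 and 22.6 CPM in the WT mice (samples 012, 018, 020 and 025), and 46.4, 47.3, 42.9 and 49 CPM in the Ercc1Δ/− mice (samples 004, 005, 013 and 026). Sample 018 lay inside the Ercc1Δ/− range and the other 3 WT mice lay well below it. The difference was 0.71 ± 0.18, or 1.63-fold higher (adjusted p = 0.00986). Gbp8 measured 33.8, 37.4, 34.2 and 32.7 CPM in the same WT mice and 14.6, 16.1, 9.03 and 22.1 CPM in the Ercc1Δ/− mice. All 4 WT mice, sample 018 included, were within a narrow band above every Ercc1Δ/− mouse. Gbp8 fell by 1.13 ± 0.24 on the log2 scale, or 2.19-fold (adjusted p = 0.00284). Among males alone, 3 WT and 2 Ercc1Δ/− mice, the Gbp8 difference was −1.08 with an adjusted p of 0.145.

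The other 7 genes were not called, and for most of them sample 018 set the WT spread. Gbp3 measured 9.7, 17.3 and 11 CPM in WT samples 012, 020 and 025 but 57.3 CPM in sample 018, against 39.1 to 58.3 CPM in the Ercc1Δ/− mice, and its difference was 0.97 ± 0.36 (adjusted p = 0.0968). Iigp1, an effector IRG, measured 7.6, 9.93 and 6.26 CPM in those 3 WT mice, 63.9 CPM in sample 018 and 31.6 to 41.6 CPM in the Ercc1Δ/− mice. Gbp4 had the opposite sign, −1.61 ± 0.6 (adjusted p = 0.1), with 59.6 CPM in sample 018, 13.4, 10.8 and 6.16 CPM in the other WT mice and 5.37 to 10.7 CPM in the Ercc1Δ/− mice.

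Without sample 018, 7 of the 9 genes were called at 22 weeks on AL food, while the share over all genes went down to 7.51%. Sample 018 was singled out by its high values for most of these genes. Leaving it out therefore had to raise their values in Ercc1Δ/− relative to WT mice and to narrow the WT spread. The WT mice left were all male, against 2 females and 2 males among the Ercc1Δ/− mice, so these calls are a description. Gbp3 rose by 1.84 ± 0.23 on the log2 scale (3.59-fold, adjusted p = 3.31e-05), and Iigp1 by 2.33 ± 0.44 (5.03-fold, adjusted p = 0.00425). Irgm1 rose by 1.11 ± 0.15, Igtp, the other regulatory IRG, by 1.27 ± 0.38, Gbp9 by 1.2 ± 0.32 and Gbp2 by 0.69 ± 0.14. Gbp8 fell by 0.99 ± 0.29 (adjusted p = 0.0346). Gbp4 then differed by −0.28 ± 0.51 and Gbp7 by 0.87 ± 0.29, with adjusted p-values of 0.803 and 0.0664. Igtp turned from −0.46 to 1.27 when this library was left out. Among males alone, 3 of the 9 genes were called, Gbp2, Gbp3 and Irgm1, all higher in Ercc1Δ/− mice, against 2.85% of all genes.

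Under DR most of the genes differed between genotypes. Of the 9 genes, 6 rose (Gbp2, Gbp3, Gbp7, Gbp9, Irgm1 and Iigp1) and Gbp8 fell, against 13.0% of all genes called. The groups did not overlap for 5 of the 9, against 8.32% of all genes. The 5 restricted WT mice also enter the wild-type diet contrast that drew attention to the list, so these counts are not independent of that choice. The median log2 difference of the 9 was 0.88, against 0 over all genes. Gbp3 measured 9.93, 11.4, 20, 9.39 and 9.21 CPM in the WT mice (samples 007, 010, 017, 021 and 028) and 43.8, 32.9, 47.2, 68.4 and 37.5 CPM in the Ercc1Δ/− mice (samples 006, 014, 016, 022 and 029). The lowest Ercc1Δ/− mouse was above the highest WT mouse, and the difference was 1.99 ± 0.38, or 3.96-fold (adjusted p = 0.0031). Irgm1 was 12.2 to 25.5 CPM in WT and 27.8 to 43.4 CPM in Ercc1Δ/− mice, a difference of 0.78 ± 0.17 (adjusted p = 0.00292). Gbp9 was 5.49 to 13.5 CPM in WT and 13.8 to 33.8 CPM in Ercc1Δ/− mice, a difference of 1.24 ± 0.29 (adjusted p = 0.00666). Gbp2, the most abundant member, was 45.9 to 63.5 CPM in WT and 69.1 to 103 CPM in Ercc1Δ/− mice, and rose by 0.58 ± 0.16 (adjusted p = 0.0189).

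Gbp7 rose by 0.88 ± 0.25 (adjusted p = 0.0184), with 6.14 to 9.86 CPM in WT and 11.6 to 20.6 CPM in Ercc1Δ/− mice. Iigp1 rose by 1.93 ± 0.55 (adjusted p = 0.0345), and its groups overlapped by 1 mouse at each edge: the highest WT mouse, sample 017, had 10.7 CPM and the lowest Ercc1Δ/− mouse, sample 014, had 10.6 CPM. Its call was lost in 9 of the 18 fits that left out 1 sample, each a restricted mouse. Gbp8 went the other way, with 12.2 to 29.6 CPM in WT and 7.11 to 13.6 CPM in Ercc1Δ/− mice (−0.88 ± 0.24, adjusted p = 0.0174). Gbp8 was no longer called without sample 007 or without sample 016, with differences of −0.7 and −0.75 and adjusted p-values of 0.0515 and 0.0593. Gbp4 and Igtp differed by 0.81 ± 0.4 and 1.22 ± 0.43, with adjusted p-values of 0.205 and 0.0741. In Ercc1Δ/− mice on DR sample 022 was the highest for all 9 tested genes. Gbp2 was also not called without sample 006, nor Gbp7 without sample 017 or sample 029. Without sample 022, 4 genes were called (Gbp3, Gbp8, Gbp9 and Irgm1), against 12.8% of all genes, and Gbp2, Gbp7 and Iigp1 had adjusted p-values of 0.0505, 0.0573 and 0.145 with differences of 0.56, 0.85 and 1.62. Gbp6 could be tested only with the filter on low counts removed, and then differed by 2.26 ± 0.62 (adjusted p = 0.01). Its groups overlapped, with 0 to 1.62 CPM in WT and 0 to 4.62 CPM in Ercc1Δ/− mice, which had at most 10 counts. The share of all genes called in that fit was not worked out.

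**Figure D2:**
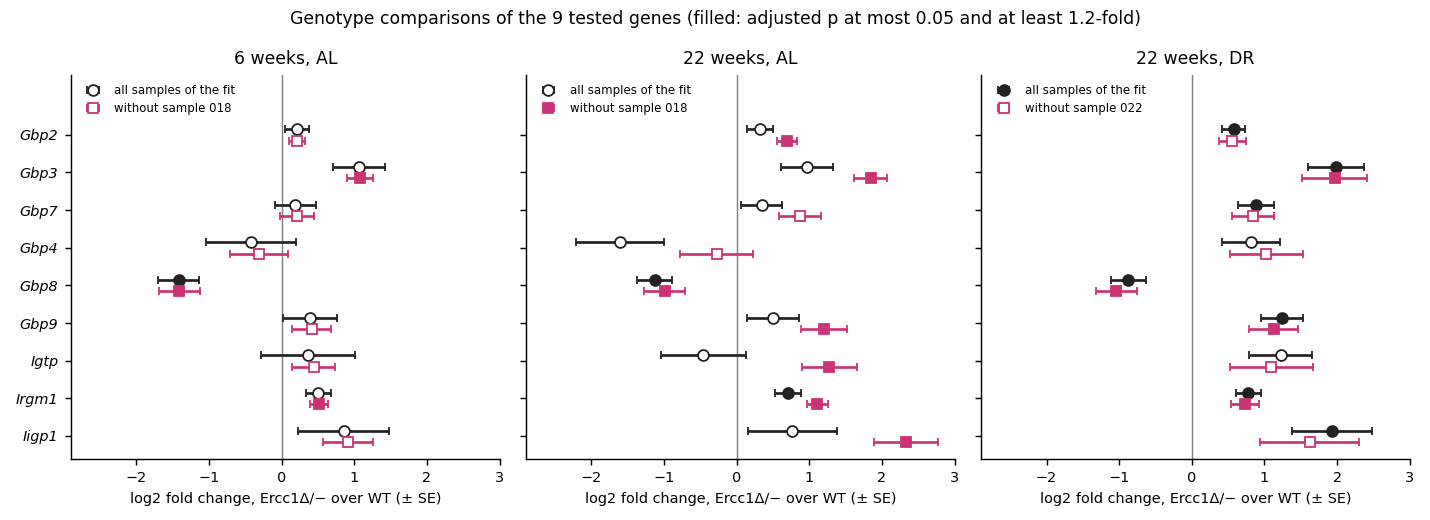
Log2 fold change (± SE) between Ercc1Δ/− and WT mice for the 9 tested genes in the 3 genotype comparisons. Black circles use all samples of the fit and pink squares leave out sample 018 (AL) or sample 022 (DR), with filled symbols for calls. Gbp8 is on the negative side in all 3 comparisons, and without sample 018 the positive side at 22 weeks on AL food holds 6 calls. Sample 018 was singled out by its high values for most of these genes.

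In the main edgeR fits Gbp8 was the only one of the 9 genes called lower in a genotype comparison, and it was in all 3. Gbp4 was also called lower at 22 weeks on AL food in other versions. These were DESeq2 (−1.492), all 6 groups in 1 fit (−1.613), the 2 groups alone (−2.085) and thinned counts (−1.762). Gbp8 calls were lost with males alone at 6 weeks and at 22 weeks on AL food, and with thinned counts at 6 weeks. The WT mice of each of these 3 comparisons also enter the wild-type contrasts whose values drew attention to Gbp8. None of the 3 calls is therefore independent of that choice. When the counts of the chromosome 5 genes Gbp4, Gbp6, Gbp8, Gbp9, Gbp10 and Gbp11 were summed into 1 unit, no genotype difference was called, with values of −0.25 ± 0.28 at 6 weeks, −0.61 ± 0.28 at 22 weeks on AL food and 0.31 ± 0.24 on DR. Of the summed genes only Gbp8, Gbp9 and Gbp4 overlap one another. The sum also joins genes that went opposite ways, such as Gbp9 (1.24) and Gbp8 (−0.88) on DR. It therefore cannot show whether an uneven division of reads bears on the Gbp8 values.

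The next comparison asked how these genes changed with age in Ercc1Δ/− mice on AL food. All 9 had a positive log2 fold change from 6 to 22 weeks, with a median of 0.5 against 0.02 over all genes, and 2 were called, Gbp8 and Irgm1, against 4.65% of all genes. Gbp8 went from 2.95 to 6.07 CPM at 6 weeks to 9.03 to 22.1 CPM at 22 weeks, a rise of 1.86 ± 0.29 (3.63-fold, adjusted p = 0.000333). Irgm1 went from 23.7 to 30.7 CPM to 42.9 to 49 CPM, a rise of 0.72 ± 0.17 (adjusted p = 0.0153). For both genes every mouse of 22 weeks was above every mouse of 6 weeks, which held for 4 of the 9 and, in either direction, for 6.82% of all genes. The Irgm1 call did not hold without sample 023 or sample 026, where its adjusted p was at most 0.064, nor with sample 003 added to the WT mice. Gbp2 did not overlap either, with 61.6 to 89.7 CPM at 6 weeks and 91.4 to 109 CPM at 22 weeks, and its difference of 0.41 ± 0.17 had an adjusted p of 0.214.

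In WT mice the same contrast, given here without a test, was positive for all 9 genes, with a median log2 value of 0.62 against −0.01 over all genes, of which 0.219% were called. Gbp8 had the largest value, 1.58 ± 0.22, or 2.98-fold, and all 4 mice of 22 weeks (32.7 to 37.4 CPM) were above all 5 of 6 weeks (8.48 to 20.6 CPM). Gbp4 followed at 1.23 ± 0.53 and Igtp at 1.18 ± 0.59. Without sample 018 the median was −0.05. Gbp8 then remained at 1.47 ± 0.25, and each of the other 8 fitted genes lay between −0.65 and 0.23. Gbp6, too low for the fit, had means of 0.851 CPM at 6 weeks and 2.57 CPM at 22 weeks (2.02 without sample 018). The rise of Gbp8 with age was 1.86 in Ercc1Δ/− and 1.58 in WT mice, and the difference between these values was 0.28 ± 0.38.

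DR was then compared with AL food at 22 weeks. In Ercc1Δ/− mice none of the 9 genes was called in edgeR or in DESeq2, against 1.78% of all genes in edgeR, and 1, Irgm1, had an unadjusted p under 0.05, against 15.0% of all genes. Of the 9, 7 had a negative log2 value, and the median was −0.22. Irgm1 measured 42.9 to 49 CPM on AL food and 27.8 to 43.4 CPM on DR, where sample 022 was the highest and the other 4 mice were at 27.8 to 31.9 CPM. Its difference was −0.4 ± 0.18 (adjusted p = 0.288). Iigp1 measured 31.6 to 41.6 CPM on AL food and 18.4, 10.6, 14.2, 55.2 and 17.5 CPM on DR (samples 006, 014, 016, 022 and 029), and differed by −0.46 ± 0.52. With all samples the 2 groups overlapped for each of the 9 genes. Apart from sample 022 every restricted mouse was below every AL-fed mouse for Gbp2, Irgm1 and Iigp1. That sample was set aside after its values were seen, and the share over all genes was not worked out, so this is a description. Gbp3 was alike in range, 39.1 to 58.3 CPM on AL food and 32.9 to 68.4 CPM on DR, with a difference of 0.08 ± 0.38. The values for Gbp4 and Gbp9 were within 0.01 of 0 on the log2 scale, with SEs of 0.4 and 0.29.

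In WT mice all 9 genes were lower on DR, with a median log2 value of −0.86 against 0.01 over all genes, of which 1.30% were called. These values too are a description. Gbp4 measured 13.4, 59.6, 10.8 and 6.16 CPM on AL food and 2.35, 3.14, 6.33, 5.18 and 1.81 CPM on DR, so that the groups overlapped by sample 025 and sample 017. Its difference was −2.7 ± 0.29, or 6.48-fold lower. Igtp and Iigp1 followed at −1.71 ± 0.36 and −1.7 ± 0.51. Gbp8 measured 32.7 to 37.4 CPM on AL food and 29.6, 12.2, 17.2, 15.9 and 25.2 CPM on DR, every restricted mouse below every AL-fed mouse, with a difference of −0.73 ± 0.19. Without sample 018 the median was −0.44, Gbp4 was at −1.91 ± 0.29 and Gbp8 at −0.62 ± 0.21, and Igtp and Iigp1 were at −0.66 ± 0.31 and −0.56 ± 0.39. With and without sample 018 the Gbp4 value was the farthest from 0 of the 9. The DR value in Ercc1Δ/− mice minus that in WT mice was positive for all 9 genes, with a median of 0.83, and 0.1 without sample 018.

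Sample 018 was the only female left among the AL-fed WT mice of 22 weeks, so sex and this library cannot be told apart within the group. Igtp stood at 46.3 CPM there, 9.36 times the mean of the other 3 mice, Iigp1 at 8.06 times, Gbp4 at 5.89 times and Gbp3 at 4.53 times. Gbp9, Gbp7, Gbp2, Irgm1 and Gbp6 stood at 2.1 to 2.7 times. Gbp8 stood at 1.12 times. Igtp, Iigp1, Gbp4 and Gbp3 were at ranks 2, 3, 4 and 9 of 12353 genes by that log2 difference, and Gbp8 at rank 2769. Among genes with 10 or more counts in sample 018, 7 of the 10 members and 7 of 12 other GBP and IRG genes were more than 2 times the highest of the other 3 mice, as were 10 of 18 type I interferon genes and 5 of 22 other interferon-gamma induced genes, among them Cd74 (3.12 times the mean), the invariant chain of MHC class II. None of 4 signal transduction genes or of 15 ATG8 and vacuole targeting genes was. Sample 018 was singled out by its high values for most of the GTPase genes, so their ranks and their count had to be high. For the count the share over all genes was not worked out. The macrophage markers of sample 018 summed to 309 CPM in a group of 287 to 426 CPM, and its T and NK cell markers to 1.99 CPM. Haemoglobin genes were high in it as well, with Hbb-bt and Hba-a1 at log2 differences of 2.35 and 2.3. The part that blood cells had in these levels was not tested. The left-out female of that group, sample 003, had 21.5 CPM for Igtp, 37.6 for Iigp1, 29.6 for Gbp4, 34.9 for Gbp3 and 32.2 for Gbp8, but 5.37 for Irgm1 and no count for Gbp6. At 2.69 CPM per count these rest on few counts.

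**Figure D3:**
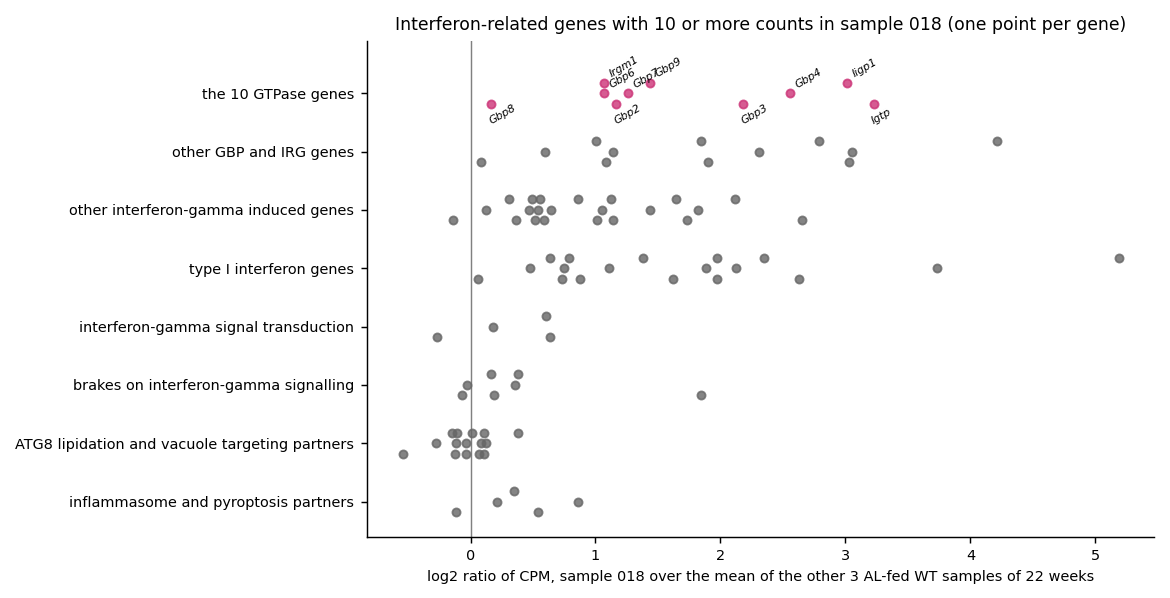
Log2 ratio of CPM in sample 018 to the mean of the other 3 AL-fed WT mice of 22 weeks, 1 point per gene with 10 or more counts in sample 018, by gene list. Of the 10 GTPase genes (pink) Igtp, Iigp1, Gbp4 and Gbp3 lie farthest right and Gbp8 near 0, and the ATG8 and vacuole targeting partners lie around 0. Sample 018 was singled out by its high values for most of the GTPase genes.

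Sex was compared over all 6 groups, with the group as a term. No member was called in edgeR, against 0.186% of all genes, but 7 of the 9 had an unadjusted p under 0.05, all lower in males, against 7.82% of all genes. DESeq2 called 3 (Gbp2, Gbp4 and Igtp), against 0.421% of all genes. The log2 values (male over female) were −0.37 ± 0.08 for Gbp2 (adjusted p = 0.0568), −1.26 ± 0.29 for Igtp (adjusted p = 0.0797) and −1.17 ± 0.29 for Gbp4 (adjusted p = 0.125). The mean of the females was above that of the males in 6 of 6 groups for Gbp3, Gbp7, Gbp4 and Iigp1 and in 5 for Gbp2, Gbp6, Igtp and Irgm1. Every female was above every male in 4 of 6 groups for Gbp2, Gbp4 and Igtp. For each of these genes the groups include AL-fed WT mice of 22 weeks, where sample 018 is the only female. The share over all genes was not worked out for this count, and groups with 1 or 2 females separate easily. Gbp8 had no such direction, with the female mean higher in 3 of 6 groups and a value of 0.13 ± 0.15. Without sample 018 the values were −0.23 for Gbp2, −0.64 for Igtp and −0.56 for Gbp4, with adjusted p-values of 0.229, 0.328 and 0.536.

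**Figure D4:**
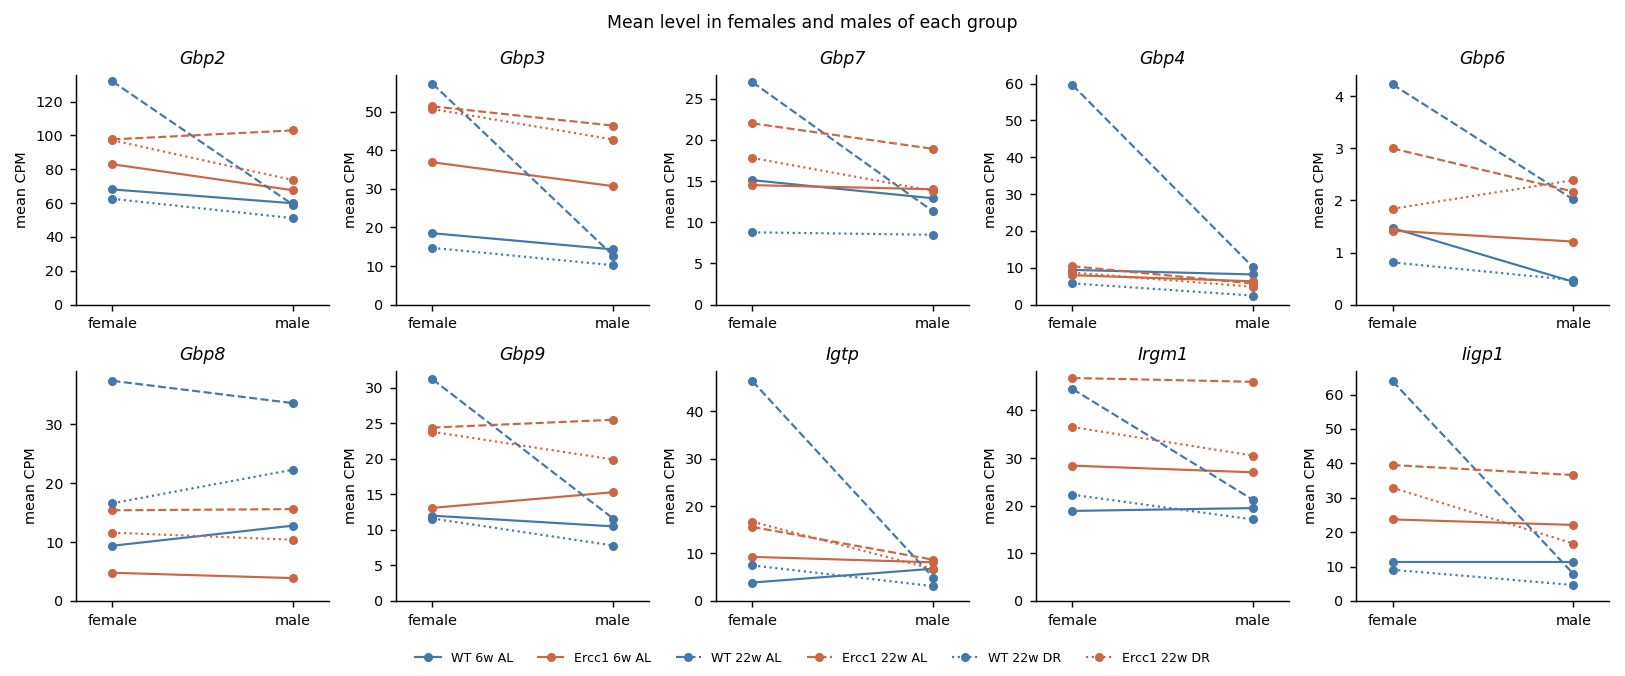
Mean level (CPM) of each GTPase gene in the females and the males of each group, with WT in blue and Ercc1Δ/− (written Ercc1) in red, solid lines for 6 weeks AL, dashed for 22 weeks AL and dotted for 22 weeks DR. Most lines slope down from females to males, and the steepest is that of AL-fed WT mice of 22 weeks, whose female point is sample 018 alone.

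Over the 28 samples, with each gene's log2 CPM centred within its group, 8 of the 9 genes moved together from mouse to mouse. The median Pearson r of a gene with the others was 0.55 for Gbp7 to 0.78 for Iigp1, and for Gbp8 it was 0.03. Without sample 018 these were 0.28 to 0.61 and −0.01. The points share libraries and depth, and these correlations are descriptions. Sex was not centred, and the same 8 genes had lower fitted values in males, so a shared sex difference enters them. Outside the family, the genes most like the mean of the 9 were Psmb8 (r = 0.842, and 0.748 without the 2 farthest samples), an immunoproteasome subunit, then Ifit1, Sp100, Nlrc5, Oas2, Lgals9, Tap1, Phf11d, H2-T23 and Ifit3, with r of 0.713 to 0.759. Gbp4 was most like the MHC class I genes H2-K1 (0.817) and H2-T23 (0.804) and the immunoproteasome subunit Psmb9 (0.798). Gbp8 was most like Trp53rkb (0.693), Tstd3 (0.66) and Rad23b (0.653), none of them a gene of the interferon lists.

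Of 17 other GBP and IRG genes, 4 passed the filter: Gbp5, Irgm2, Ifi47 and 9930111J21Rik2. On DR all 4 were higher in Ercc1Δ/− than in WT mice. Of all genes 13.0% were called there, and 12.0% at 22 weeks on AL food. Ifi47, an IRG, differed by 2 ± 0.41 (adjusted p = 0.00239), 9930111J21Rik2 by 1.56 ± 0.23 (adjusted p = 4.48e-05), Irgm2, a regulatory IRG, by 1.14 ± 0.27 (adjusted p = 0.00715), and Gbp5, of the chromosome 3 cluster, by 0.99 ± 0.21 (adjusted p = 0.00268). All 4 calls held without sample 022. At 22 weeks on AL food 1 of the 4 was called, 9930111J21Rik2 at 1.01 ± 0.26 (adjusted p = 0.0117), and without sample 018 the calls were Ifi47 at 2.38 ± 0.43 and Irgm2 at 0.92 ± 0.28, with 9930111J21Rik2 at an adjusted p of 0.0651. None was called at 6 weeks in edgeR, nor at an unadjusted p under 0.05. In WT mice 2 fell on DR, Gbp5 by 0.88 ± 0.2 and Irgm2 by 1.07 ± 0.24, and neither did without sample 018. With all samples 1.30% of all genes were called in that comparison. Igtp and Irgm2 share 162 exon bases on the same strand.

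Of the pathway that induces these genes, the ligand Ifng had 0 counts in all 28 libraries, which allows up to 0.312 CPM in the deepest and 3.26 CPM in the shallowest by counting error alone. Both receptor genes were expressed. Ifngr1, the ligand-binding chain, rose in Ercc1Δ/− mice at 22 weeks by 0.4 ± 0.1 on AL food (adjusted p = 0.0106) and by 0.36 ± 0.09 on DR (adjusted p = 0.0105), with group means of 96.8 to 131 CPM. The call on AL food was lost with males alone, with no filter and with thinned counts, and that on DR with thinned counts. Ifngr2, the second chain, fell on DR in Ercc1Δ/− mice by 0.52 ± 0.13 (adjusted p = 0.0411, a call lost in 10 of 18 fits that left out 1 sample). Of 4 signal transduction genes, Irf1, a transcription factor that drives GBP genes, rose at 6 weeks by 0.54 ± 0.13 (adjusted p = 0.0364, with the call lost in 7 of 18 fits that left out 1 sample) and Jak1, a receptor kinase, rose on DR by 0.27 ± 0.08 (adjusted p = 0.0273, lost in 4 of 18). Jak2, another receptor kinase, was not called in any genotype comparison.

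Of 26 other interferon-gamma induced genes 18 were tested. In Ercc1Δ/− mice 2 rose at 6 weeks, 8 at 22 weeks on AL food and 8 on DR, and none fell. Over all genes 1.72%, 12.0% and 13.0% were called in these comparisons. Irf9, a transcription factor of interferon responses, rose in all 3 comparisons, by 0.63, 0.89 and 0.76, and B2m, the MHC class I light chain, rose at 22 weeks by 0.59 on AL food and 0.35 on DR. The Irf9 call was lost at 6 weeks with males alone and on DR with thinned counts. Both B2m calls were lost with sample 003 added, that on AL food also with males alone and that on DR with no sex term. Nlrc5, the activator of MHC class I genes, rose on DR by 1.56 ± 0.4 (adjusted p = 0.00884, and 0.101 without sample 022), and Irf8 rose on AL food by 1.17 ± 0.32 (adjusted p = 0.018, lost without sample 004, 005 or 025). Ciita, Cxcl9, Cxcl10 and Socs1 did not pass the filter. In WT mice 6 of the 18 fell on DR, Nlrc5, Cd74, Psmb8, Psmb9, Tap1 and B2m, by 0.45 to 2.53 on the log2 scale, and 1 of the 18, Cd74, did without sample 018. With all samples 1.30% of all genes were called in that comparison. Of 19 type I interferon genes 15 were tested, of which 5 rose at 6 weeks, 15 at 22 weeks on AL food and 13 on DR, and the median log2 differences were 0.96, 1.49 and 1.87. Irf7, a master factor of that response, rose in all 3, by 1.6, 2.61 and 2.23, and the call at 6 weeks was lost in 5 of 18 fits that left out 1 sample. Without sample 022, 10 of the 15 rose on DR. In Ercc1Δ/− mice all 15 had a negative value on DR with none called in edgeR and 5 at an unadjusted p under 0.05. Over all genes these shares were 1.78% and 15.0%.

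Cell markers moved with these comparisons. Of all genes 1.72% were called between genotypes at 6 weeks, 12.0% at 22 weeks on AL food and 13.0% on DR. Of 10 macrophage markers 2 rose at 6 weeks, 8 at 22 weeks on AL food and 6 on DR in Ercc1Δ/− mice, and their sum was 632 to 1160 CPM in AL-fed Ercc1Δ/− against 287 to 426 CPM in AL-fed WT mice of 22 weeks. Under DR the sum was 434 to 1300 CPM in Ercc1Δ/− against 188 to 352 CPM in WT mice, and at 6 weeks 279 to 714 against 224 to 271 CPM. From AL food to DR in Ercc1Δ/− mice 5 of the 10 macrophage markers fell, against 1.78% of all genes called. Of 8 smooth muscle markers 3, 6 and 7 fell in the 3 genotype comparisons, and of 10 endothelial markers 0, 2 and 4 rose. The T and NK cell markers, of cells that make interferon-gamma, summed to 4.7 to 9.06 CPM in AL-fed Ercc1Δ/− mice of 22 weeks against 0.923 to 1.99 CPM in AL-fed WT mice, and 2 to 7 of the 10 were at 0 in each of those Ercc1Δ/− libraries. On DR the sum was 0 to 4.41 CPM in Ercc1Δ/− and 0.493 to 1.96 CPM in WT mice. The dendritic cell markers summed to 5.27 to 9.24 CPM against 1.23 to 2.77 CPM on AL food, and to 0 to 4.52 CPM against 0.392 to 1.99 CPM on DR. At 6 weeks the T and NK cell sum was 1.32 to 6.75 CPM in Ercc1Δ/− and 0 to 14.3 CPM in WT mice. The dendritic cell sum was then 1.31 to 2.53 CPM in Ercc1Δ/− and 0.771 to 4.34 CPM in WT mice. The part of macrophage, T and NK cell, dendritic cell, smooth muscle and endothelial RNA in the differences of the GTPase genes was not tested.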

How the data were processed

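Polyadenylated RNA of the aortic arch was read from directional libraries with molecular identifiers, 1 per mouse. The authors handled the identifiers with UMI-tools 1.1.2, trimmed with fastp, aligned with STAR 2.7.10a to GRCm39, removed duplicates and counted with HTSeq 2.0.2; the notes also name bcl2fastq 2.20 and DESeq2 1.34.0. The deposited values are raw counts per gene. Lines that name no gene held 12.6% to 18.7% of reads and were left out, as was sample 003, and no column lacked a sample.

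Counts were analysed in R 4.3.3 with edgeR 4.0.16 (limma 3.58.1) by quasi-likelihood tests on TMM-scaled libraries, with group and sex as terms. Comparisons with 6 weeks used 18 AL samples, comparisons on DR 18 samples of 22 weeks, and sex all 28. Genes needed more than 10 counts in more than 10 samples. Adjusted p-values are Benjamini-Hochberg values over 12353 genes. Changed genes passed an adjusted p of 0.05 with a change of 1.2-fold or more. Each mouse was taken as a replicate, and 1 count limits the precision of low genes. Intervals and floors cover counting error only.

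All 10 members were named in every comparison, other GBP and IRG genes when counted, and from each pathway list at most 4 called genes with the smallest p in each direction, plus Ifng, Ifngr1, Ifngr2, Jak1, Jak2, Irf1, Irf8, Ciita, Cxcl9, Cxcl10 and Socs1, and the 10 genes most like the members' mean (3 each for Gbp4 and Gbp8). Some items are not reported here. Members and lists were chosen with earlier results of these data known. Alternatives were DESeq2 1.42.0, other scaling, no filter, no sex term, the 2 compared groups alone, sample 003 added, thinned counts, a summed chromosome 5 unit and each sample left out; the older dispersion method and males alone were added after the data were seen. Procedures were tested on simulated data. Sequences and tables were handled in Python 3.11.15.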

Additional observations from a re-analysis of the deposited data

Results flagged for a closer look

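Of 60 sets of values (10 genes in 6 groups), 11 held a sample whose gap to its nearest neighbour exceeded Dixon's critical value, which chance does in about 5 percent of sets. Most of these genes vary together over the same libraries, so the sets are not independent and 11 cannot be weighed against that share. In AL-fed WT mice of 22 weeks sample 018 stood apart for 6 genes, with 132 CPM for Gbp2, 57.3 CPM for Gbp3, 59.6 CPM for Gbp4, 46.3 CPM for Igtp, 44.5 CPM for Irgm1 and 63.9 CPM for Iigp1. In Ercc1Δ/− mice on DR sample 022 stood apart for the 3 IRG genes, with 23.9 CPM for Igtp, 43.4 CPM for Irgm1 and 55.2 CPM for Iigp1. Sample 017 stood apart among WT mice on DR with 20 CPM for Gbp3. Sample 009 stood apart among WT mice of 6 weeks with 20.6 CPM for Gbp8. In each case the sample was the highest of its group.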

How the results depend on the processing

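No paired analysis was possible because each mouse gave 1 sample and no replicate number recurs between groups. Called members numbered, at 6 weeks, 2 with DESeq2 or with the 2 groups alone and 0 with thinned counts or males alone, and 1 to 3 with a sample left out. At 22 weeks on AL food they numbered 4 with DESeq2 (Gbp3, Gbp4, Gbp8 and Irgm1) and 2 to 7 with a sample left out. On DR they numbered 4 without the sex term and 4 to 8 with a sample left out. For age in Ercc1Δ/− mice they numbered 1 with sample 003 added or with thinned counts, 0 with males alone and 1 to 3 with a sample left out (1 without sample 023 or 026). For sex they numbered 3 with DESeq2, 1 (Gbp2) with no filter or with sample 003 added, and 0 to 3 with a sample left out (3 without sample 001 or 024).
None was called for DR in Ercc1Δ/− mice in any version. The median log2 value of the members ran from −0.052 to 0.95 with a sample left out for age in WT mice (−0.041 with males alone), from −1.05 to −0.44 for DR in WT mice, from −0.25 to 0.67 for genotype by age (0.65 with males alone) and from 0.1 to 1.01 for genotype by diet (−0.072 with males alone).

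Some values of genes that did not pass the test changed sign. With a sample left out these log2 values ran, at 6 weeks, from −0.094 to 0.31 for Gbp7, from −0.95 to 0.28 for Gbp4 and from −0.16 to 1.01 for Igtp, and at 22 weeks on AL food from −0.66 to 1.27 for Igtp. For age in Ercc1Δ/− mice they ran from −0.37 to 0.26 for Gbp4, and for DR in Ercc1Δ/− mice from −0.11 to 0.303 for Gbp3, −0.17 to 0.24 for Gbp4, −0.26 to 0.17 for Gbp9 and −0.073 to 0.49 for Igtp. With males alone Igtp at 22 weeks on AL food was 0.82, Gbp4 for age −0.15, and Gbp3 and Igtp for DR −0.13 and −0.398. With thinned counts Gbp9 at 6 weeks was −0.027, Gbp4 for age −0.197, Igtp for DR −0.202 and Gbp8 for sex −0.006. For DR in Ercc1Δ/− mice DESeq2 gave −0.005 for Gbp3 and −0.032 for Igtp, no sex term −0.061 and −0.16, the 2 groups alone −0.024 for Gbp3, no filter 0.012 for Gbp4 and 0.027 for Gbp9, and RLE scaling 0.015 and 0.01. The causes were not tested, apart from the fewer samples or counts these versions hold. With 1 count worth up to 1.08 CPM, differences in Gbp4, Gbp6 and Igtp are the least precise.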

Other observations

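Lists of genes that act beside the GTPases were also compared. Usp18, which restrains the type I interferon receptor, rose in Ercc1Δ/− mice by 2.1 at 6 weeks, 2.65 at 22 weeks on AL food and 2.54 on DR on the log2 scale (edgeR adjusted p = 0.0321, 0.000201 and 0.000184). Ptpn6, a phosphatase of immune cells, rose on AL food by 1.19, and Socs3, a feedback inhibitor of JAK signalling, rose on DR by 0.7. With males alone or thinned counts neither the Ptpn6 nor the Socs3 call was kept, nor was the Usp18 call at 6 weeks with males alone. Of 15 ATG8 and vacuole targeting genes, which place GTPases on membranes, 2 rose at 22 weeks on AL food, against 12.0% of all genes called. They were Gabarapl1, by 0.45 (adjusted p = 0.0039), and Lgals3, a galectin that is also a macrophage product, by 1.9 (adjusted p = 1.19e-06). On DR 1 of the 15, Gabarapl1, rose, by 0.44 (adjusted p = 0.00128), against 13.0% of all genes called. Lgals3 fell on DR in Ercc1Δ/− mice by 0.86 and rose on DR in WT mice by 0.99. The Gabarapl1 call on AL food and the fall of Lgals3 were lost with males alone, and its rise in WT mice with thinned counts.

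Of 8 inflammasome genes, which GBPs help to engage, 4 were tested. Casp4, which binds bacterial lipopolysaccharide, rose in Ercc1Δ/− mice at 22 weeks by 2.06 on AL food (adjusted p = 8.44e-05) and by 1.72 on DR (adjusted p = 1.57e-05), and from 6 to 22 weeks by 1.25. Gsdmd, the pore former of pyroptosis, rose on DR by 0.63, and Casp1 rose from 6 to 22 weeks in Ercc1Δ/− mice by 1.11. The Gsdmd call was lost with males alone and with sample 003 added. The Casp1 call was lost with the older dispersion method, males alone, the compared groups alone, sample 003 added and thinned counts, with values of 0.44 to 1.08, and the Casp4 age call with males alone or thinned counts.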
